A study of Mus musculus with 8 samples.

Results

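The change in A/B compartment score on removal of SETDB1, with no inhibitor of other histone methyltransferases present, was described in 23987 autosomal bins of 100 kb. These were the bins present and non-zero in both the Setdb1 KO and the Setdb1 WT score, of 24005 bins scored in any of the 8 libraries of the series, and the change of a bin is its Setdb1 KO score minus its Setdb1 WT score. Both libraries came from mouse embryonic stem cells (mESCs) of the conditional knockout line #33-6, grown with serum replacement, a little serum and LIF on gelatin. Setdb1 WT cells were untreated, and Setdb1 KO cells were given 800 nM 4-hydroxytamoxifen (4-OHT) for 5 days, which deletes the floxed gene. A further library, Setdb1 KO + UNC, received 4-OHT at 800 nM for 2 days and then the G9a/GLP inhibitor UNC0642 at 2 µM for 3 days, and was used only as a check, with Setdb1 WT as the control that both changes share. Setdb1 WT + UNC received UNC0642 alone at the same dose and time. Suv39h WT (ADF1-26) and Suv39h DKO (ADF157, without SUV39H1 and SUV39H2) are other mESC lines, each scored untreated and after the same UNC0642 treatment. Each group held 1 library, no library came from cells given 4-OHT that keep SETDB1, and the line is a single one, so SETDB1 loss, 4-OHT exposure and the handling of a library cannot be told apart, and no test between conditions was possible. Whether a file holds 1 repeat of the experiment or a pool is not stated, and whether the change is wider than the difference between repeats of a group was not tested.

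SETDB1 is a methyltransferase that places H3K9me3. In mESCs it is brought to endogenous retroviruses and to some gene clusters by TRIM28 and KRAB zinc finger proteins, and its loss is known for releasing retroviral elements and germline genes from silencing. Hi-C counts contacts between loci in fixed nuclei. In such maps the genome falls into an A compartment, rich in active genes, and a B compartment, rich in heterochromatin and lamina contacts. The score used here is positive in A and negative in B and has no physical unit. Each chromosome averages 0 in each library, so only a redistribution within a chromosome can be seen, and a general shift cannot.

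After SETDB1 removal a small number of bins changed their score by 0.01 or more, the size of change the study worked with. The score rose by at least that much in 336 bins, which is 1.4% of all bins, and fell in 211 bins, 0.88%. These percentages are the background against which gene groups are read below. The middle of the distribution hardly moved, with a median change of -0.000119 and a positive change in 48.6% of bins. The change had an SD of 0.00413 over bins and ran from -0.0188 to 0.0306, and 79.5% of bins changed by under 0.005. The pair of libraries that both lack SETDB1 gives a measure of how far scores differ without a difference in SETDB1. These libraries do differ in UNC0642 and in exposure to hydroxytamoxifen, which lasted 5 days in Setdb1 KO and 2 days in Setdb1 KO + UNC. Setdb1 KO + UNC minus Setdb1 KO shares the Setdb1 KO library with the change and had an SD of 0.00395, with 181 bins at or above 0.01 and 224 at or below -0.01. Past 0.01 in either direction were 2.28% of bins for the change and 1.69% for this pair. The shared library enters the 2 differences with opposite sign, so their upper and lower ends were not set against each other. Suv39h WT minus Setdb1 WT, a difference between lines, spread more widely, with an SD of 0.00679 and 12% of bins past 0.01 in either direction. Setdb1 KO + UNC minus Setdb1 WT + UNC, a pair from the same line, spread slightly wider still, with an SD of 0.00707. It had 1718 bins at or above 0.01 and 1389 at or below -0.01. A wide spread was therefore not confined to pairs from different lines.

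**Figure D1:**
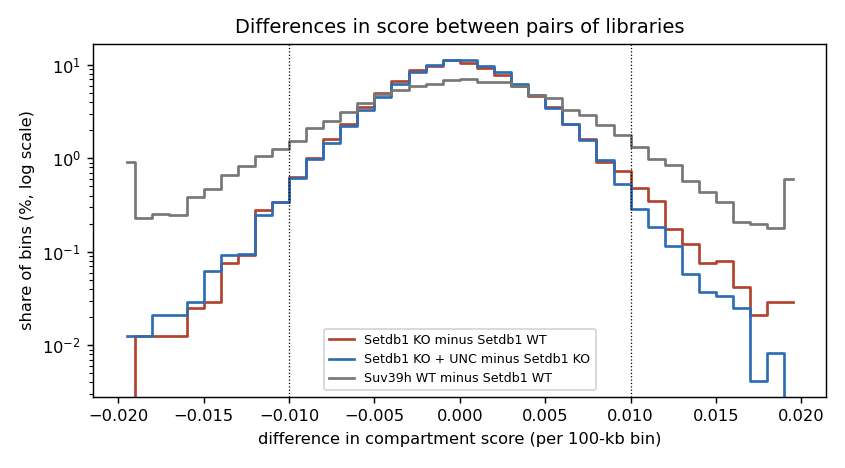
Share of 100-kb bins (%, log axis) at each difference in compartment score, for 3 pairs of libraries; dotted lines mark 0.01 in either direction, and the outermost steps also hold all differences beyond them. The lines of Setdb1 KO minus Setdb1 WT and Setdb1 KO + UNC minus Setdb1 KO lie close together, with 2.28% and 1.69% of bins past 0.01 in either direction, and Suv39h WT minus Setdb1 WT is wider, with 12%.

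Most bins that changed stood alone. The 336 rising bins formed 307 separate stretches, of which 283 were a single bin, 22 were 2 adjacent bins, 1 was 3 bins and 1 was 6 bins. The 211 falling bins formed 204 stretches, of which 199 were a single bin, 3 were 2 bins and 2 were 3 bins.

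The longest rise lay in a cluster of V1R vomeronasal receptor genes, which encode pheromone receptors of sensory neurons. It covered the 6 bins of chr13:22100001-22700000 and 17 protein-coding genes from Vmn1r189 to Vmn1r206. These bins scored between -0.00739 and -0.00105 in Setdb1 WT, but between 0.0069 and 0.0177 after the removal. All 6 bins were thus weakly B before and A afterwards, and the ranges did not overlap. The mean rose from -0.00405 to 0.01, a change of 0.0141. Setdb1 KO + UNC averaged 0.00837 and Setdb1 WT + UNC -0.0143. The mean was -0.0136 in Suv39h WT and -0.0128 with UNC0642 added, and it was -0.0123 in Suv39h DKO and -0.0175 with UNC0642 added. The 6 libraries with SETDB1 had a mean below 0 here and both libraries without it a mean above 0, but Setdb1 WT + UNC was also low around the run. In chr13:21900001-22000000 it scored 0.0239 against 0.0506 in Setdb1 KO + UNC, and in chr13:23000001-23100000 -0.0165 against 0.011, gaps as wide as the mean gap of 0.0227 within the run. Repeats took up 49.5% of the bases, and how well reads of these similar genes could be placed was not measured.

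The edges of this rise followed the gene cluster only in part. The bin before it, which holds replication-dependent histone genes next to Vmn1r189, scored 0.0275 in Setdb1 WT and 0.0348 in Setdb1 KO. The bin after it, with Vmn1r208, scored 0.00453 and 0.00596. A gene-free bin of the same cluster, chr13:22900001-23000000, scored -0.0246 and -0.0282, and so stayed in B. Farther along, the bin of Vmn1r217 to Vmn1r220 rose again, from 0.00938 to 0.0204.

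The second longest rise lay in the stefin A cluster on chromosome 16. Stefins are small inhibitors of cysteine proteases such as the cathepsins. The 3 bins of chr16:36100001-36400000 overlap 8 genes from Csta1 to BC100530. Their scores were 0.0312, 0.0216 and -0.00431 in Setdb1 WT, in genomic order. They were 0.0445, 0.0416 and 0.00613 in Setdb1 KO. In Setdb1 WT the score dipped here, from 0.0537 in the bin before the run to its lowest in the last of the 3 bins. It was back at 0.0137 in chr16:36500001-36600000. The lowest bin was the same in Setdb1 KO, and the dip over the 3 bins was shallower. The mean went from 0.0162 to 0.0307, and Setdb1 KO + UNC stood at 0.0278. It was 0.00824 in Setdb1 WT + UNC and 0.00805 in Suv39h WT. The next bin, with Stfa2 and Stfa3, went from 0.00575 to 0.0105, a change of 0.00471.

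**Figure D2:**
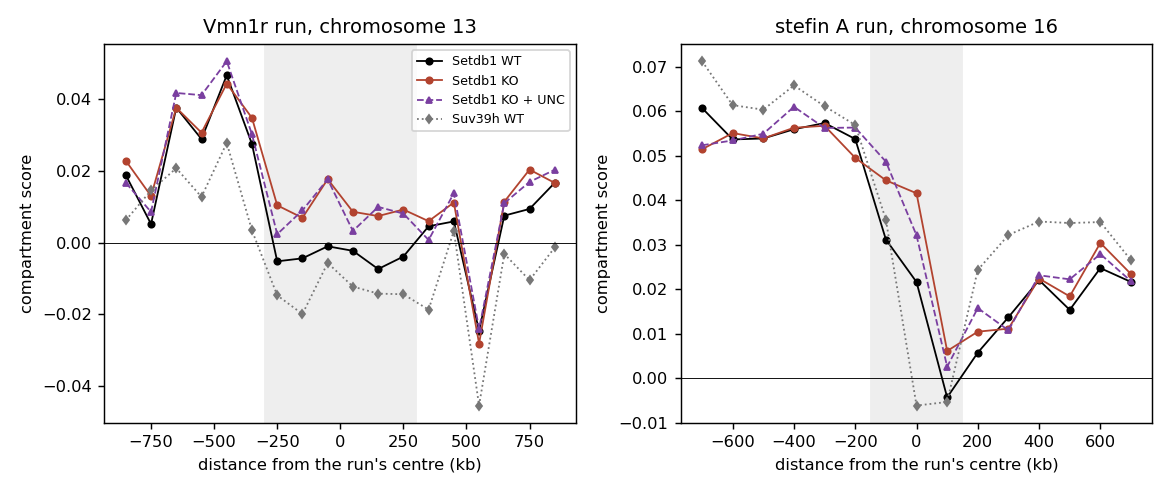
Compartment score (y axis, no unit) in each 100-kb bin against distance from the centre of the run (kb) in 4 libraries, for the 6-bin rise over Vmn1r genes and the 3-bin rise over stefin A genes; grey shading marks the run. Within the shaded Vmn1r bins Setdb1 WT lies between -0.00739 and -0.00105 and Setdb1 KO between 0.0069 and 0.0177. Outside the shading the gap between these lines is mostly smaller, opening again in the bin of Vmn1r217 to Vmn1r220, and Suv39h WT stays apart in many bins.

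The next longest rises were 22 stretches of 2 bins, of which the 6 with the largest mean change are given. Chr10:7100001-7300000, in Cnksr3, a scaffold protein of kinase signalling, went from 0.0172 to 0.0337, with 0.0256 in Setdb1 KO + UNC. Chr16:21400001-21600000, in Vps8, a subunit of an endosomal tethering complex, went from 0.0252 to 0.0401 and stood at 0.037. In Vps8 the other libraries did not share the low control value, since Setdb1 WT + UNC scored 0.0361 and Suv39h WT 0.0423. Chr16:11400001-11600000, in the sorting nexin gene Snx29, went from 0.0175 to 0.0324 and stood at only 0.0219 in Setdb1 KO + UNC, below the 0.0322 of Setdb1 WT + UNC. Chr3:145000001-145200000, with the chloride channel regulators Clca1 and Clca2 and with Odf2l, went from 0.00425 to 0.0172 and stood at 0.00859. Chr18:3900001-4100000 and chr12:21800001-22000000 hold no protein-coding gene. They changed by 0.0141 and 0.0139, and by 0.00999 and 0.00733 when Setdb1 KO + UNC took the place of Setdb1 KO.

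The single bin with the largest rise should be read with its sequence in view. Chr3:15600001-15700000 went from -0.0648 to -0.0342, a change of 0.0306, but 89.3% of its bases are unsequenced in the assembly. The next was chr19:3100001-3200000, near the end of the chromosome that lies next to the centromere, which went from -0.0232 to -0.00016 and holds no protein-coding gene. Both of these bins also scored higher in Setdb1 KO + UNC than in Setdb1 WT, by 0.0245 and 0.0165. At the chromosome 3 bin, however, Setdb1 WT + UNC scored -0.0416, about the same as the -0.0403 of Setdb1 KO + UNC, whereas at the chromosome 19 bin it scored -0.0361 against -0.00666. The remaining 6 of the 8 largest rises were between 0.0187 and 0.022. They lay in Cnksr3, in a gene-free bin at chr18:4400001-4500000, at Stfa1, in Vps8, in a gene-free bin at chr16:8300001-8400000 and at Vmn1r197 to Vmn1r200.

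Falls were shorter and lay elsewhere. Only 5 stretches of 2 or more bins fell. Chr3:37600001-37900000, with Spry1, an inhibitor of receptor tyrosine kinase signalling, and Gm5148, went from a mean of 0.0256 to 0.0142, and Setdb1 KO + UNC stood at 0.0193. Chr13:69100001-69400000 holds no protein-coding gene and went from -0.0142 to -0.0253, with -0.0235 in Setdb1 KO + UNC. Chr13:30800001-31000000, with the exocyst gene Exoc2, Hus1b and Gm5447, went from 0.0173 to 0.00264, with 0.00907 in Setdb1 KO + UNC. Chr14:4000001-4200000, with 6 predicted genes from Gm3099 to Gm2974, went from -0.0255 to -0.0397. Chr9:50700001-50900000, with 9 genes from Dixdc1 to Sik2, went from 0.0366 to 0.0261. In each of these 5 stretches Setdb1 KO + UNC lay between Setdb1 KO and Setdb1 WT.

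Among single bins, the deepest fall was at Pdzd8 on chromosome 19, a lipid transfer protein gene, where the score went from 0.0143 to -0.0045. Ptch1, the receptor for Hedgehog ligands, lay in a bin that went from 0.0609 to 0.0426, still strongly A. The bin of the transcription factor gene Sox4 went from 0.0227 to 0.00494. Vmn2r33, a V2R vomeronasal receptor gene on chromosome 7, lay in a B bin that went from -0.0241 to -0.0427. The other 4 of the 8 deepest falls were at Exoc2, Gm8108 to Gm2974, Ccn4 with Ndrg1, and Prl2c2. At Ptch1, Sox4, Vmn2r33 and Gm8108 to Gm2974 Setdb1 WT had the highest value of the 8 libraries. At Ptch1 and Sox4 Suv39h WT scored 0.0427 and 0.0106 there and Setdb1 WT + UNC 0.0426 and 0.0104.

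Promoters in rising bins held fewer CG dinucleotides than promoters at large, and those in falling bins about as many. A promoter is taken here as the 250 bases before and 50 bases after a RefSeq gene start, and the CG dinucleotide is the site of DNA methylation in mammals and is dense in CpG islands. The 156 promoters in rising bins held a median of 2 CG dinucleotides, against 15 over all 15642 promoters in scored bins and 19 in the 119 promoters of falling bins. At least 10 were held by 31.4% of promoters in rising bins and by 63.9% of those in falling bins, against 60.0% of all. Promoters of 1 cluster share a bin and are not independent, and no median without the gene clusters was taken. The 31 in rising stretches of 2 or more bins, which are part of the 156, also had a median of 2. The 15 in falling stretches of that length had a median of 9, and 46.7% of them held at least 10, both below the values over all promoters. Both kinds of promoter are shown by 4 sequences, chosen after their values were seen, Vmn1r199 and Stfa1 for bins that rose and Ptch1 and Sox4 for bins that fell. They are from RefSeq in GRCm38.p6, read 5′ to 3′ on the strand of the gene, with each CG in capitals. They lie at chr13:22382288-22382587 (+), chr16:36276898-36277197 (+), chr13:63565686-63565985 (-) and chr13:28953650-28953949 (-).
Vmn1r199: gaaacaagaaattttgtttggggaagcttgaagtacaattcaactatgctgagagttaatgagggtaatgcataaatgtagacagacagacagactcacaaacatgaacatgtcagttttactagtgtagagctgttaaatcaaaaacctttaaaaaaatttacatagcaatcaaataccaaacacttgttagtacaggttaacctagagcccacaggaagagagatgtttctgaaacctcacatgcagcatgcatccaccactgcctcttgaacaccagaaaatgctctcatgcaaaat
Stfa1: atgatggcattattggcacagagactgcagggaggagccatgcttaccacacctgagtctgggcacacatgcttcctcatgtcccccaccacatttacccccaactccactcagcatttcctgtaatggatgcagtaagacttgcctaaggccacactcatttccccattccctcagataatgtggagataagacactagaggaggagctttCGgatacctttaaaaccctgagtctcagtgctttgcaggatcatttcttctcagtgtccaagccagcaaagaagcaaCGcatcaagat
Ptch1: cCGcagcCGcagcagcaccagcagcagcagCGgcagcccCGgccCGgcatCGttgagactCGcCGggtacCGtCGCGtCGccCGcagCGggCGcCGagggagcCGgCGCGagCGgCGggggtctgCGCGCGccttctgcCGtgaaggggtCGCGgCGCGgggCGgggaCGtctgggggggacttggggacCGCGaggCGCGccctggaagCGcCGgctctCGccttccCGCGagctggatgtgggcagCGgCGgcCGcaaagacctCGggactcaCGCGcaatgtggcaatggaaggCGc
Sox4: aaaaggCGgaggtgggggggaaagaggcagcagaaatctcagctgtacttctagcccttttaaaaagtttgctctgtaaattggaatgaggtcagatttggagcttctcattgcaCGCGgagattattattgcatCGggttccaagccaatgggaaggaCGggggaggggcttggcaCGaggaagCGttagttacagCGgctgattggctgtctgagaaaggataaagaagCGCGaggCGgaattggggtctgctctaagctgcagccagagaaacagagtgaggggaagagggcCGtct
Vmn1r199 held 0 CG dinucleotides, Stfa1 2, Sox4 12 and Ptch1 47. CG reads the same on both strands, so the count does not depend on the strand printed.

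Gene groups were compared by the bin in which each member starts, a bin being counted once. Of 25 lists, 9 held a rising bin and 7 a falling bin, and 16 held neither. The V1R receptors stood highest among large families. They occupied 94 bins, of which 9 rose (9.57%, against 1.4% of all bins) and 0 fell, with a median change of 0.00192. The median score of these bins went from -0.0111 to -0.00861. By chromosome, 7 of the 12 V1R bins on chromosome 13 rose, 2 of the 22 on chromosome 6 and 0 of the 50 on chromosome 7. Among all bins of these chromosomes 4.94%, 0.546% and 0.071% rose, so 0 of 50 on chromosome 7 differs little from its share. The count thus rested on the chromosome 13 cluster described above and on Vmn1r42 to Vmn1r44 and Vmn1r47 to Vmn1r49 on chromosome 6. The lowest V1R bin, with Vmn1r93 to Vmn1r95 on chromosome 7, changed by -0.00767.

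In the other chemosensory families the rising shares lay nearer to that of all bins, and the difference from V1R genes was not tested. Of 93 V2R bins 2 rose (2.15%), at Vmn2r96 and at Vmn2r91 with Vmn2r124 on chromosome 17, and 1 fell, at Vmn2r33, with a median change of 0.00127. Of 330 olfactory receptor bins 7 rose (2.12%) and 2 fell (0.606%), with a median of 0.000715. Of these 7, 5 lay among the 41 olfactory receptor bins of chromosome 9, whose median change was 0.00413. On that chromosome 2.30% of all bins rose. The bin of Olfr836 and Olfr837 there went from -0.0135 to 0.0048. The falls were at Olfr1417 to Olfr1420 on chromosome 19, with -0.0122, and at Olfr263 with Olfr1368 on chromosome 13, with -0.011. The 14 bitter taste receptor bins had a median change of -0.00114 and no call, from -0.00622 at Tas2r144 to 0.00962 at Tas2r139. These families lie in repeat-rich DNA. The median share of repeats was 55.5% in V1R bins, 52.1% in V2R bins and 45.8% in olfactory receptor bins, against 31.7% over all bins, and the part this plays in the counts was not tested.

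Genes of the 2-cell embryo, a programme mostly silent in mESCs, started in 19 bins, of which 3 rose and 1 fell. That is 15.8% rising and 5.26% falling, against 1.4% and 0.88% of all bins. The median share of repeats in these bins was 50.6%, against 31.7% over all bins, and its part was not tested. Tdpoz3 went from 0.0103 to 0.0258, Duxf3, which encodes the transcription factor that switches this programme on, from 0.00705 to 0.0196, and Zfp352 from -0.0181 to -0.0067. Setdb1 KO + UNC minus Setdb1 WT was 0.00687 at Tdpoz3, 0.00906 at Duxf3 and 0.0106 at Zfp352, so of these 3 only Zfp352 passed 0.01 there. Zscan4b went the other way, from -0.0252 to -0.0385, and stood at -0.0212 in Setdb1 KO + UNC. Of the 4 stefin A bins 3 rose, with a median change of 0.0119, as the run above implies. Zinc finger genes named Zfp occupied 277 bins, and their median change was 3.17e-05, with 4 bins rising (1.44%) and 1 falling. The rising ones held Zfp352, Zfp809 with Zfp599, Zfp750 and Zfp322a. ZFP809 is a KRAB zinc finger protein that brings TRIM28 to retroviral sequence, and its bin went from 0.04 to 0.051. Zfp397 and Zfp35 shared the falling bin, with -0.0106.

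Small clusters on chromosomes 6, 16, 18 and 19 gave the remaining calls. Of 9 protocadherin bins 1 rose, at Pcdha11 with 0.0148, and 1 fell, at Pcdhga1 with -0.0112, and in Setdb1 KO + UNC these differed from Setdb1 WT by 0.0019 and -0.0069. Of 45 bins with cytochrome P450 family 2 genes 2 rose, at Cyp2c37 and Cyp2c55, and 1 fell, at Cyp2ab1. Of 16 killer lectin receptor bins 1 rose, at Klrb1f, and 1 fell, at Klra17. In the order given, the rising shares were 11.1%, 4.44% and 6.25% and the falling shares 11.1%, 2.22% and 6.25%. Over all bins 1.4% rose and 0.88% fell, and shares that rest on so few bins say little. In Setdb1 KO + UNC minus Setdb1 WT the lists held 1, 5 and 0 rising bins and 0 falling ones.

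No bin of the pluripotency genes or of the H3K9 methylation machinery passed 0.01, which with 20 and 25 bins differs little from the 2.28% of all bins that did so in either direction. All 20 bins of pluripotency genes were A in Setdb1 WT, none changed side, and their median score was 0.0344 before the removal and 0.0347 after it. The range of change ran from -0.0091 at Dppa4 to 0.00745 at Gdf3. Pou5f1, which encodes OCT4, scored 0.0638 in both libraries, and Sox2 0.0427 and 0.0432. The 25 bins of the H3K9 methylation machinery were all A in both libraries, with changes from -0.00713 at Daxx to 0.00478 at Setdb2. The bin of Setdb1 itself went from 0.0485 to 0.0422 and stood at 0.0467 in Setdb1 KO + UNC. A score over 100 kb cannot show the deletion.

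Germline genes, many of which are known targets of H3K9 methylation, occupied 25 bins with a median change of 0.000851. They ran from -0.00906 at Rpl10l, a ribosomal protein gene of the testis, to 0.00641 at Hormad1, and Dazl, a germ cell RNA-binding protein gene, scored -0.0205 and -0.0201. The 20 bins of lineage regulators ran from -0.00865 at Myf5 to 0.00635 at Neurod1, and the 21 bins of imprinted genes from -0.00712 at Plagl1 to 0.0047 at Ndn. Among housekeeping groups the 70 ribosomal protein bins had a median change of -0.000487, and the 10 histone bins one of 0.00134. The range was -0.00906, again at Rpl10l, to 0.00602 at Rpl15 for the former and -0.00519 at Hist4h4 to 0.00731 at Hist1h2ah for the latter. None of these lists held a bin past 0.01 in either direction, which at 2.28% of all bins says little about lists of this size. The same holds for 6 clustered families with no such bin. Keratin bins had a median change of 3.89e-05, from -0.00874 at Krt10 to 0.00695 at Krt12. Defensin bins had one of 0.0023, from -0.00528 at Defb2 to 0.00715 at Defa3, and serpin bins one of 0.00272, from -0.00857 at Serpinb6a to 0.00824 at Serpinb9g. Serpins are mostly protease inhibitors, and Nlrp genes encode sensors of innate immunity and egg proteins. Nlrp genes had a median of 0.00134, from -0.00469 at Nlrp5 to 0.00665 at Nlrp10, and the prolactin family one of 0.00259, from -0.00344 at Prl3d1 to 0.00808 at Prl6a1. Ceacam and Psg genes had a median of -0.000399, from -0.00618 at Ceacam12 to 0.00516 at Psg17. Of 3 example genes that the study singled out, 2 were matched by name, and their bins changed by 0.00609 (Nlrp4c) and -0.0014 (Gm4971).

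Changes of compartment were few and small. A sign change from B to A was found in 410 bins, 1.71% (95% Wilson interval 1.55 to 1.88%), and from A to B in 362 bins, 1.51% (1.36 to 1.67%). These intervals cover counting only, since neighbouring bins are not independent and there is 1 library a side. Most such bins had lain near 0. Their median in Setdb1 WT was -0.00253 for bins that went to A and 0.00193 for bins that went to B, and 78.3% and 86.7% of them lay within 0.005 of 0. Bins at the edge of a compartment domain made up 71.5% of the former and 83.7% of the latter, against 15.2% of all bins. Only 76 of the 410 and 30 of the 362 also passed the change of 0.01. After the removal the medians were 0.00263 and -0.00225, and those of Setdb1 KO + UNC lay nearer to 0, at 0.000683 and -0.000737.

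A domain is a run of adjacent bins of one sign in Setdb1 WT. Whole domains that changed side were almost all a single bin long. Of 242 single-bin B domains 89 became A, and of 275 single-bin A domains 98 became B. Among B domains of 2 to 4 bins 10 of 240 changed side entirely, and among those of 5 to 9 bins 1 of 188 did, the 6-bin domain of the Vmn1r cluster. None of the 174 B domains of 10 to 19 bins or the 205 longer ones did so. Among A domains 8 of 294 with 2 to 4 bins changed side entirely, and 0 of the 161, 143 and 157 in the larger classes. The number of A domains went from 1030 to 1002 and that of B domains from 1049 to 1019. Setdb1 KO + UNC had more of each than the control, 1068 and 1086.

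By starting score, the calls lay mostly in the middle of the scale. From -0.02 to 0.02 between 1.81% and 2.59% of bins rose in each of 4 classes, and between 0.958% and 1.49% fell. From -0.04 to -0.02 the shares were 0.813% and 0.383%, and from 0.02 to 0.04 they were 0.905% and 0.766%. At the ends the directions parted. Of 604 bins at -0.04 or lower 14 rose (2.32%) and 0 fell (upper bound 0.632%), with a mean change of 0.00141. Of 2301 bins above 0.04 only 4 rose (0.174%) and 25 fell (1.09%), with a mean change of -0.00137. The class and the change share the Setdb1 WT library, so an error in that library alone would give this inward movement. With classes set by Suv39h WT, which is on neither side of the change, the means at the ends were 0.00063 and -0.000808, with 2.70% and 0.607% rising and 0.405% and 0.841% falling, so that the excess of falls in the highest class was smaller. With classes set by Setdb1 KO the lowest class had a mean of -0.000866, the opposite sign.

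**Figure D3:**
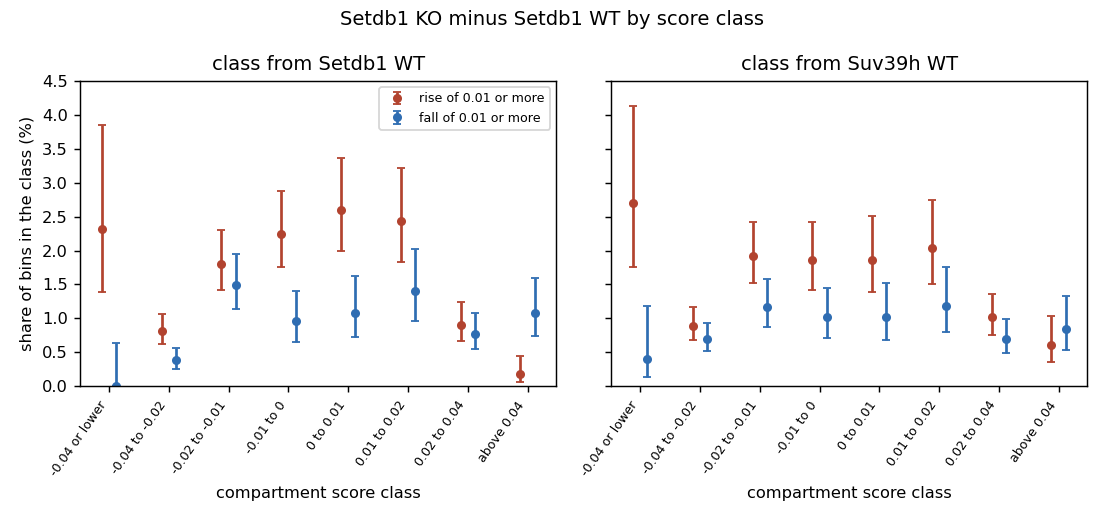
Share of bins (%) in each compartment score class with a rise or a fall of 0.01 or more from Setdb1 WT to Setdb1 KO, with the class taken from Setdb1 WT (left) or from Suv39h WT (right); bars are 95% Wilson intervals and cover counting only. Rises exceed falls in all classes up to 0.04 in both panels, and the gap above 0.04 narrows from 0.174% against 1.09% on the left to 0.607% against 0.841% on the right.

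Small domains moved towards their surroundings. Among single-bin B domains the mean change was 0.00282 and 5.79% of bins rose, against -0.000232 and 0.804% in B domains of 20 or more bins. Among single-bin A domains the mean was -0.00218 and 5.09% fell, against 0.000317 and 0.577% in A domains of 20 or more bins. Setdb1 KO + UNC minus Setdb1 WT gave 4.13% rising and 4.73% falling in the same single-bin domains and shares the control that defined them. With domains drawn from Suv39h WT, single-bin B domains had a mean of 0.00111 with 4.10% rising and 0 falling. Single-bin A domains then had a mean of -0.000328 with 1.47% falling and 2.57% rising. The movement of B islands was therefore still seen with that definition, and that of A islands was mostly lost. Single-bin B domains did not stand out in rising share there, with 3.42% in B domains of 2 to 4 bins and 4.27% in those of 5 to 9. In B domains of 20 or more bins 0.944% then rose. At domain borders 4.04% of B bins rose and 2.58% of A bins fell, and 10 or more bins inside the figures were 0.651% and 0.377%. With borders from Suv39h WT 3.00% of B border bins rose and 1.06% fell. Of A border bins 2.20% then rose and 1.57% fell, so that rises outnumbered falls, the reverse of the 1.46% and 2.58% with borders from Setdb1 WT.

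Rises were somewhat more frequent in bins without protein-coding genes than in gene-dense bins, but the margin depended on which genes and which library were used. Of 8457 bins with no protein-coding gene 1.69% rose (1.44 to 1.99%), followed by 1.36% with 1 gene, 1.24% with 2 to 3 genes, 0.784% with 4 to 7 genes and 1 of 197 bins (0.508%) with 8 or more. The falling share stayed between 0.508% and 0.989%. The rising share of gene-free bins exceeded that of bins with 8 or more genes by 1.18 percentage points, by 0.0137 when all annotated genes were counted and by 0.215 with Setdb1 KO + UNC in place of Setdb1 KO. The mean change in bins with 8 or more genes was -0.00105, but in Setdb1 KO + UNC minus Setdb1 WT it was 0.000113. In the A compartment alone 2.80% of 1355 gene-free bins rose and 0 of 182 bins with 8 or more genes (upper bound 2.07%). In the B compartment the order was not kept, with 1.48% of gene-free bins rising and 2.53% of those with 4 to 7 genes.

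Repeat-rich DNA scored higher after SETDB1 removal. Repeats are the bases soft-masked in the reference, which include the endogenous retroviruses that SETDB1 silences but also many other elements. In the 10% of bins with most repeats, 49.0% of bases or more, the mean change was 0.00124 and 82 of 2399 bins rose (3.42%, 2.76 to 4.22%) while 19 fell (0.792%). In the 10% with fewest, at most 20.9%, the mean was -0.000393, with 0.875% rising and 1.25% falling. The correlation of change with repeat share over 23987 bins was weak, at r 0.113, and had a positive sign on each of the 19 autosomes, from 0.00117 to 0.277. It held on both sides of the border between compartments. When the bins of each compartment were cut into 5 classes of repeat content, 3.00% of B bins rose in the highest class and 0.863% in the lowest, and 2.81% and 1.12% of A bins. With classes from Suv39h WT the bins above the median repeat content had the higher mean change in each of the 6 classes up to 0.02, and the lower one in the 2 above it.

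The gradient differed widely between pairs of libraries. In Setdb1 KO + UNC minus Setdb1 WT + UNC, which shares no library with the change, it was far steeper in the same direction, with means of -0.00493 and 0.00432 in the lowest and the highest class and an r of 0.375. It was also steeper in Setdb1 KO + UNC minus Setdb1 WT, with means of -0.00144 and 0.00147, and it was also present between the libraries that lack SETDB1, with -0.00105 and 0.000225. Between the libraries that lack SETDB1 r was 0.0914 and positive on 19 of 19 autosomes, as many as for the change. Between Suv39h WT and Setdb1 WT the gradient ran the other way, with means of 0.00194 and -0.00129. There r was -0.12 and positive on 1 of 19 autosomes. A difference between untreated lines was therefore larger than the one seen on SETDB1 removal. All bins come from the same pair of libraries, and the part of repeats in the rises was not tested.

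**Figure D4:**
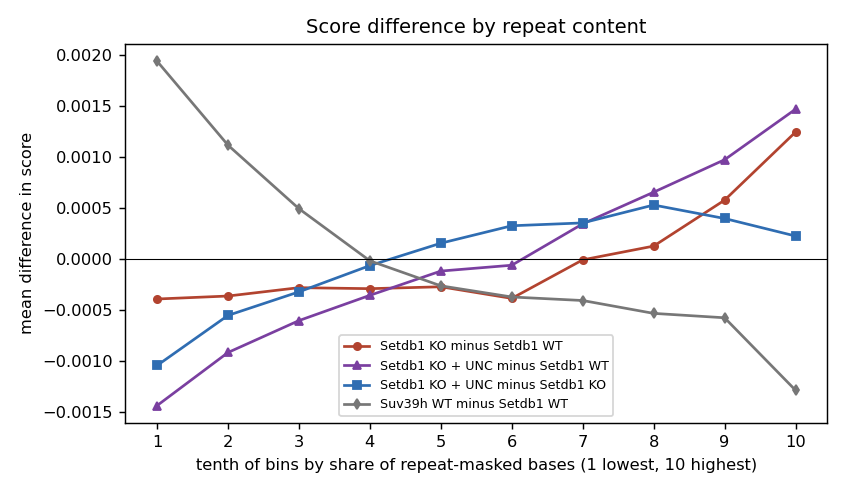
Mean difference in compartment score (y axis, no unit) in 10 equal classes of bins ordered by the share of repeat-masked bases, for 4 pairs of libraries. Setdb1 KO minus Setdb1 WT goes from -0.000393 in the lowest class to 0.00124 in the highest, and Suv39h WT minus Setdb1 WT goes the other way, from 0.00194 to -0.00129.

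Chromosome 13 held the largest share of both rises and falls. Of its 1174 bins 58 rose (4.94%) and 41 fell (3.49%). The next rising shares were 4.12% on chromosome 19 and 3.26% on chromosome 16, and the next falling shares 2.74% on chromosome 18 and 2.57% on chromosome 19. The lowest rising share was 0.071% on chromosome 7, and chromosome 8 held 0 falling bins of 1263. The score is an eigenvector entry and tends to be smaller on chromosomes with more bins, with a root mean square from 0.0219 on chromosome 2 to 0.0405 on chromosome 19. When the change was scaled to one root mean square on all chromosomes, chromosome 19 dropped to 1.20% rising and 0.172% falling, and chromosome 13 to 3.58% and 2.81%. On that scale chromosome 3 came close to it, with 3.25% and 1.91%, and chromosomes 16 and 18 had rising shares of 1.89% and 1.60%. Relative to the root mean square the SD of the change was 19.8% on chromosome 13, 19.1% on chromosome 3 and 11.5% on chromosome 8. Setdb1 KO + UNC minus Setdb1 KO, with SETDB1 absent on both sides, gave 20.4%, 17.6% and 10.2% on these chromosomes. The pair shares the Setdb1 KO library with the change, and the change had the larger relative SD on 16 of 19 chromosomes, chromosome 13 being an exception. The sign of the score was kept in 95.4% of bins on chromosome 13, the lowest, and in 98.2% on chromosome 4, the highest.

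**Figure D5:**
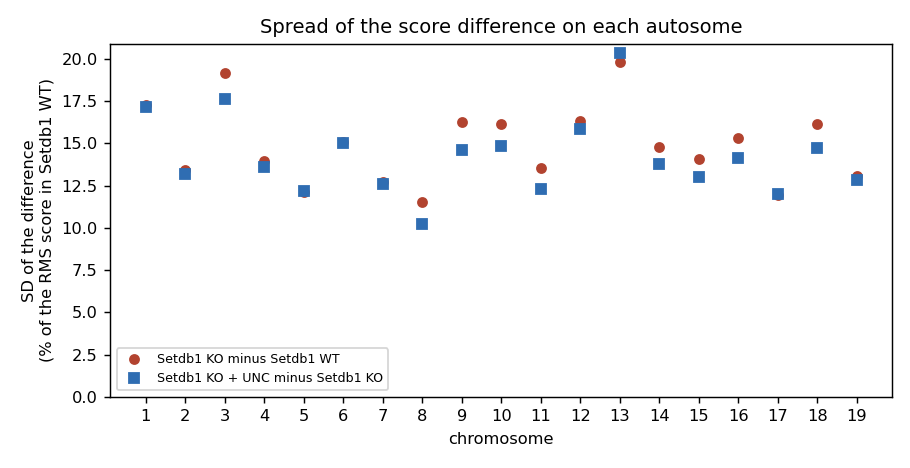
SD of the score difference on each of the 19 autosomes, as a percentage of the root mean square score in Setdb1 WT, for Setdb1 KO minus Setdb1 WT and for Setdb1 KO + UNC minus Setdb1 KO. Chromosome 13 is high in both pairs (19.8% and 20.4%) and chromosome 8 low in both (11.5% and 10.2%).

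The moved bins were last set beside the libraries that did not choose them. In the 336 rising bins the median score went from -0.00392 to 0.00851, with a median change of 0.0116, and Setdb1 KO + UNC stood at 0.00481. These values chose the bins and are a description. In the other 5 libraries the median lay between -0.00748 (Setdb1 WT + UNC) and -0.00342 (Suv39h DKO), all below 0. In the 211 falling bins the median went from 0.00044 to -0.0102, and Setdb1 KO + UNC stood at -0.00517. The same 5 libraries lay between -0.00392 and -0.0016, lower than Setdb1 WT. Against Setdb1 WT, Setdb1 KO + UNC rose by 0.01 in 1.46% of all bins and fell in 1.18%. In Setdb1 KO + UNC minus Setdb1 WT + UNC, which shares no library with the change, 7.16% of all bins rose and 5.79% fell. Among the 336 rising bins 136 rose there (40.5%) and 19 fell (5.65%), and among the 211 falling bins 31 fell (14.7%) and 12 rose (5.69%).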

How the data were processed

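Hi-C was done with DpnII, and the authors aligned reads to mm10 with the 4D Nucleome pipeline, kept a mapping quality above 10, and took compartment scores in 100-kb bins from KR-normalised intrachromosomal maps with Juicer Tools. The deposited values are these scores, 1 file a library, with no read counts, and the read totals and correlations the study gives for repeats were not used here, so no error is given for a single score. Hi-C was repeated, and which repeat, or whether a pool, a file holds is not stated. Each chromosome's scores average 0, and a subtracted mean is inferred from the values, not described by the authors. Scores were joined by bin, and differences, shares and medians were computed in Python 3.11.15 with pandas 2.3.3 and scipy 1.17.1 after a check on simulated data. Genes came from GENCODE vM21 (20807 protein-coding autosomal genes) and sequence from GRCm38.p6, which shares mm10 coordinates. Named were up to 8 of the longest runs (ties by mean change) and the 8 largest bins in each direction, and the highest and lowest bin of each list. The comparison, lists and classes were chosen with earlier results of these data known, and other regions and genes, repeat content, chromosome scaling and promoters after their values were seen. With 1 library a side there was no test. Wilson intervals are 95% and cover counting only. The values of 1 gene list are not reported here.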

Additional observations from a re-analysis of the deposited data

How the results depend on the processing

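The change itself has 1 library a side, so no paired analysis of it alone was possible, and no library could be left out. Pairing Setdb1 KO with Setdb1 WT across UNC0642 would bring inhibited libraries into the change and was not run. The 29 named stretches and bins kept their direction and stayed within 1.5 times their value under per-chromosome scaling, quantile normalization and an added or subtracted chromosome mean. With Setdb1 KO + UNC in place of Setdb1 KO they kept their direction, and 13 of 29 moved by more than 1.5 times, each to a smaller change. That setting keeps the Setdb1 WT library that served to choose them, so the kept direction is not independent. Some of the single bins lie inside named stretches and are counted in both. In Setdb1 KO + UNC minus Setdb1 WT + UNC, which shares no library with the change and was chosen after seeing the data, 8 of 29 stayed within 1.5 times, 15 kept the direction but moved by more, and 6 turned direction. Those that turned were 4 of the 8 deepest falls, at Ptch1 (0.00512), Prl2c2 (0.00284), Sox4 (0.00199) and Vmn2r33 (0.000693), the single bin of Vps8 (-0.00143) and the stretch in Snx29 (-0.0102). Counts of rising and falling bins stayed within 1.5 times of 336 and 211 under the scalings and centrings above, with Setdb1 KO + UNC in place of Setdb1 KO, after removal of a GC fit and, as alternatives chosen after seeing the data, without chromosome 13, without bins of over 5% N and on a common chromosome scale. In Setdb1 KO + UNC minus Setdb1 WT + UNC they were 1718 and 1389. For the change without UNC0642 they were 2 and 0 for means over 500 kb, 2527 and 2401 at a change of 0.005, and 4 and 0 at 0.02. The maintained share was 96.8%, and it was 96.0% and 97.0% with the chromosome mean added and subtracted, 98.0% over 500 kb, 96.4% with Setdb1 KO + UNC and 99.4% where the control was at least 0.005 from 0. In the last setting B to A was 0.411% and A to B 0.222%, and over 500 kb they were 1.03% and 0.944%. A to B was 2.14% and 1.28% with the mean added and subtracted and 1.71% with Setdb1 KO + UNC. With classes from Setdb1 KO the rising share of the lowest class exceeded that of the highest by 0.183 percentage points instead of 2.14, and the falling share of the highest exceeded that of the lowest by -0.249 instead of 1.09, with 0.436 for classes from Suv39h WT and 0.51 for Setdb1 KO + UNC. With domains from Suv39h WT, single-bin A domains exceeded long ones in falling share by 0.842 points instead of 4.51. The excess of chromosome 13 in rising share was 3.72 points and 2.32 on the common scale. With Setdb1 KO + UNC the falling share of gene-free bins exceeded that of gene-dense bins by 1.05 points instead of 0.32. The mean change of the 10% of bins with most repeats minus that of the 10% with fewest was 0.00164, and it was 0.00291 with Setdb1 KO + UNC, 0.00924 for Setdb1 KO + UNC minus Setdb1 WT + UNC and -0.00323 for Suv39h WT minus Setdb1 WT. The causes were not tested.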

Other observations

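Rises were more frequent near the start of the scored part of a chromosome, which in the mouse is the end next to the centromere. In the first 10 Mb 79 of 1894 bins rose (4.17%, 95% Wilson interval 3.36 to 5.17%) and 28 fell (1.48%), against 1.16% and 0.828% in the rest. Rising bins were found there on 14 of 19 chromosomes, and without chromosome 13 the shares were 3.85% and 1.34%. In Setdb1 KO + UNC minus Setdb1 WT, which shares the control, 3.38% rose and 2.11% fell. Repeats took up a median of 41.4% of bases in the first 1 Mb and 37.2% from 1 to 5 Mb, against 31.4% in the middle of chromosomes. The last 1 Mb held 3 rising bins of 190 and 0 falling ones.

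DpnII cuts at GATC, so the density of this motif sets how many fragments a bin can give. In the 10% of bins with most GATC sites, 2.85 per kb or more, 2.94% of bins rose and 0.671% fell, against 1.08% and 0.83% in the 10% with fewest. The correlation of change with GATC density over bins was r 0.0864 and with GC content 0.00811. These values stand beside that for repeats, and the part of each was not tested. Of the 172 bins with over 5% unsequenced bases, 11 rose and 3 fell.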
